A study of Caenorhabditis elegans with 6 samples.

Results

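The nematode-specific peptide (*nsp*) families are groups of small proteins that WormBase names by a letter, from *nspa* to *nsph*. They were followed in RNA-seq of day 2 adult *C. elegans*, comparing *mbl-1(tm1563)* mutants with the wild type, N2. Members were chosen by symbol, as every gene whose WormBase name starts with nspa- to nsph-, and by having 10 or more counts summed over the 6 libraries. Of 83 annotated genes with such a symbol, 43 met this minimum, out of 46726 genes with a count entry. They were 2 *nspa*, 1 *nspb*, 14 *nspc*, 5 *nspd*, 5 *nspe*, 11 *nspg* and 5 *nsph* genes, and no *nspf* gene. Just inside the minimum lay *nsph-2* with 11 counts in all, and just outside it lay *nspd-5* and *nsph-4.1* with 9 each. Of the 40 genes left out, 19 had no count in any library.

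The libraries were poly(A) RNA of whole animals, 3 biological replicates of N2 and 3 of *mbl-1(tm1563)*, a strain with a deletion in the gene of the muscleblind splicing factor. Both strains were grown at 20 degrees on HT115 bacteria that carried the empty RNAi vector, and both were kept from the L4 stage on 10 µM 5-fluorouracil, an inhibitor of DNA synthesis that is used to stop the production of progeny. The animals were adult for 2 days, the 5th day from hatch. Each library held many whole animals, so that fewer cells of a type and less RNA per cell cannot be told apart.

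For most of these families little more than the name and the limits of the phylum is textbook knowledge. The NSPD and NSPF peptides are better known: they belong to the sperm of *Caenorhabditis*, and NSPF is carried in the membranous organelles, vesicles that fuse with the cell surface when the sperm is activated. Hermaphrodites make sperm before adulthood and then switch to oocytes for good. The X chromosome, which holds all *nspc* genes, is largely silent in the germline, so many of its transcripts in adults come from the soma.

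The families differ in gene structure, as read from the WBcel235 annotation. All 10 *nspa* genes have a single exon that codes for 34 residues, and 9 of them lie on chromosome V. The 18 *nspc* genes, all on X, have 2 exons and code for 101 to 103 residues. The 10 *nspd* genes have a single exon each for 70 to 73 residues and are spread over 4 autosomes. The 8 *nspe* genes, for 71 to 75 residues, form 1 cluster on chromosome II from 12612518 to 12629384. The *nspg* genes code for 219 to 272 residues and the *nsph* genes for 187 to 385, so that these are not small peptides in length. Reads that aligned to several places were left out of the counts. These made up 9.74 to 9.87% of the reads tallied by HTSeq in N2 and 7.34 to 8.08% in the mutants, and their part in the values of *nsp* genes was not tested. Several genes occur in copies that share 1 symbol (*nspa-1*, *nspa-5*, *nspa-7* and *nspc-2*), and a gene listed at 0 may be a copy whose reads were not assigned. Among *nspa*, 8 of 10 genes had no count. Among *nspf*, *nspf-1* had 2 counts in 1 library and the other 2 genes had none.

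Gene counts came to 17574738 to 20750318 per library, and 12335 genes passed the filter on low counts. The *mbl-1* gene itself was counted 233, 245 and 228 times in N2 and 70, 138 and 106 times in the mutants, and was called lower: its log2 fold change (mutant over N2, as throughout) was -1.14, with a standard error (SE) of 0.24 and an adjusted p of 0.0382 in edgeR's quasi-likelihood test, adjusted over all tested genes after Benjamini and Hochberg. In marker lists of other tissues, the summed CPM (counts relative to the TMM-scaled size of each library) was lower in every mutant library than in any N2 library for intestine (27999 to 50766 against 65798 to 72711), hypodermis (1148 to 1293 against 1506 to 1552), muscle (764 to 1025 against 1082 to 1223) and pharynx and glands (29.7 to 42.5 against 49.2 to 52.8). Of these lists 1 gene of hypodermis was called, as lower, and none of intestine, muscle or pharynx. The intestine sum includes the yolk genes *vit-2*, *vit-5* and *vit-6*, so it need not stand for the tissue. The median log2 fold change of that list was -0.26. The strains overlapped for the oocyte list (17825 to 19255 in N2, 15071 to 21309 in the mutants), the neuron list (235.4 to 240 and 234 to 239) and the sperm list (257 to 278 and 230 to 300.4), with no gene called. Transcripts found mostly in sperm and spermatocytes (gsp-3, gsp-4, spe-9, spe-11 and peel-1) had at most 0.828 CPM in any library, and 9 of the 83 genes of the sperm list had no count. The part of these tissue levels in the results on *nsp* genes was not tested.

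Per kilobase of exon, *nspg* held the highest levels. *nspg-7.1* (WBGene00011856, chromosome IV from 9329040 to 9330855) reached 301 ± 16.5 RPKM (CPM per kilobase of exon, SD, n = 3) in N2, and its mean over all libraries was above that of 97.4% of the tested genes. *nspg-6*, *nspg-9*, *nspg-10*, *nspg-13* and *nspg-14* had means of 136 to 176 RPKM, above 92.3 to 94.4% of tested genes. The other 5 *nspg* members ranged from 0.251 (*nspg-3*) to 32.5 RPKM (*nspg-8*). The *nspc* members lay lower, from 0.437 (*nspc-3*) to 47.6 RPKM (*nspc-4*), with a median of 11.6. The *nspe* members lay between 0.565 and 17.9 RPKM and the *nspd* members between 0.699 and 4.25. Among *nsph* genes, *nsph-1.2* had 14.1 RPKM, and the other 4 members had under 0.5. The gene models of *nspa*, *nspd*, *nspe-1* and *nspe-2* carry no UTR, so reads beyond the coding part were not counted for them and their length is the coding length.

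**Figure D1:**
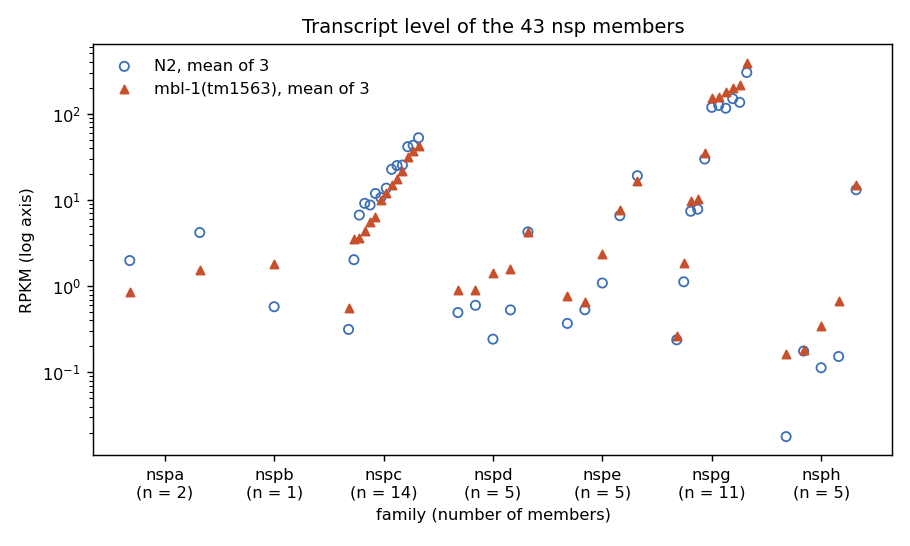
Mean RPKM (log axis) of each of the 43 members in N2 (circles) and *mbl-1(tm1563)* mutants (triangles), by family. The highest 6 points in each strain belong to *nspg*, with overall means of 136 to 346 RPKM, and most *nsph* and *nspd* members lie below 2 RPKM.

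Between strains the families went different ways. The *nspg* genes together had 1.37 times the N2 level in the mutants and the *nspc* genes together 0.765 times, each without overlap of the libraries, and no single member passed both limits of a call. The *nspe* and *nspd* sums overlapped between strains. Of the 43 members, 29 passed the filter on low counts and were tested. Of these, 26 reached its level in every library. The other members reached it in all mutant libraries but not in all N2 libraries: *nspc-5* and *nspe-4* in 2 N2 libraries and *nspe-7* in 1. Their positive values may in part be set by the filter, which was not tested. None met the limits of 0.05 on the adjusted p and of 2-fold on the change, against 0.681% of all tested genes called higher and 1.14% called lower. Without the 2-fold limit, 3 members were higher (1.77% of all tested genes) and 1 was lower (3.58%) in the mutants. The 3 higher ones were *nspg-10*, *nspg-14* and *nspg-6* and the lower one was *nspc-13*, all named after their values were seen. At an unadjusted p under 0.05 there were 9 higher (9.81% of all tested genes) and 8 lower (13.9%). With any 1 of N2 replicate 1, N2 replicate 3 or mutant replicate 3 left out, no member was under the adjusted limit. Without N2 replicate 2 it was 2 higher and 0 lower, without mutant replicate 1 it was 5 higher and 4 lower, and without mutant replicate 2 it was 7 higher and 2 lower. Calls over all genes, which need both limits, moved too. They were 31 to 33 higher and 54 to 75 lower in the fits with no member under the adjusted limit. In the other fits they were 80 to 134 higher and 116 to 234 lower. Shares of all genes at the adjusted limit alone were not counted for these fits.

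All 10 tested *nspg* members had a positive log2 fold change (0.23 to 0.70, median 0.40), as had 44.8% of all tested genes, whose median was -0.04. Of the 13 tested *nspc* members, 12 had a negative one, as had 55.2% of all tested genes, with a median of -0.38 and a range from -1.08 to 0.78. In 8 of the 10 *nspg* members every mutant library lay above every N2 library (14.7% of all tested genes), and in 8 of the 13 *nspc* members every mutant library lay below (17.9%). On X, which holds all *nspc* genes, the share below was 30.7% and the median log2 fold change -0.20.

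**Figure D2:**
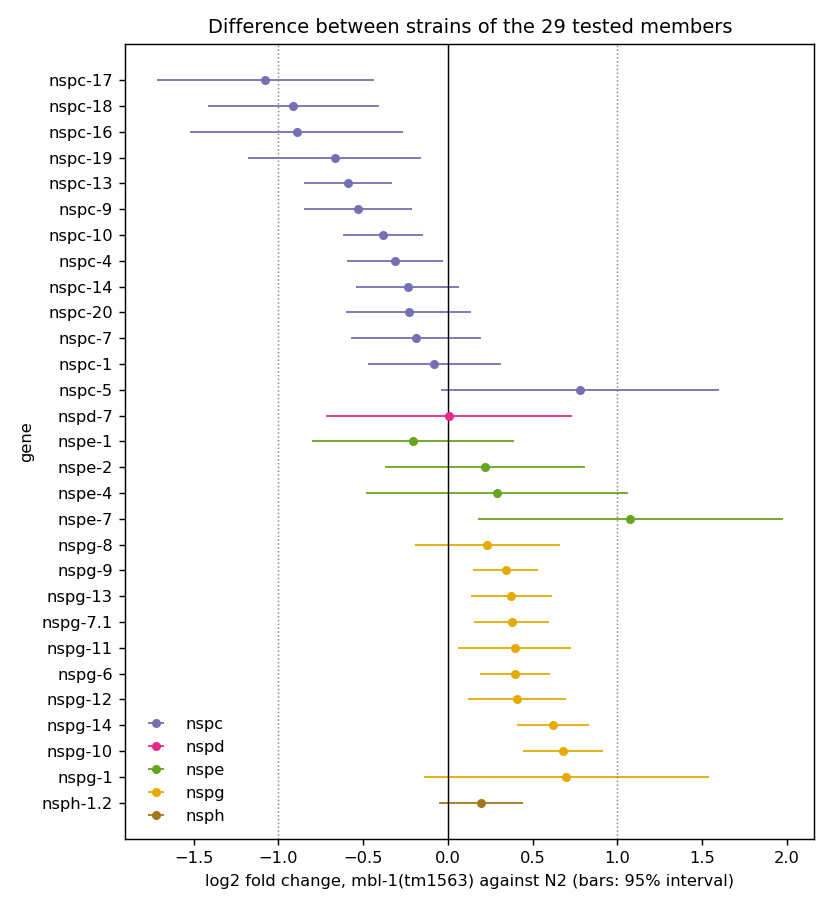
Log2 fold change of *mbl-1(tm1563)* mutants against N2 with its 95% interval for each of the 29 tested members, coloured by family. All 10 *nspg* points lie right of 0 and 12 of the 13 *nspc* points lie left of 0, and 2 points, *nspc-17* and *nspe-7*, lie beyond the dotted lines of a 2-fold change.

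Summed over its 11 members, *nspg* had 786, 914 and 832 CPM in N2 replicates 1 to 3, and 1216, 1102 and 1159 CPM in mutant replicates 1 to 3. All mutant libraries were above all N2 libraries, with means of 844 ± 65.0 and 1159 ± 57.1 CPM (SD, n = 3 per strain), a ratio of 1.37. Summed over its 14 members, *nspc* had 99.5, 117 and 100.4 CPM in N2 and 80.8, 81.9 and 79.6 CPM in the mutants. Here all mutant libraries were below, with means of 106 ± 9.63 and 80.8 ± 1.17 CPM, a ratio of 0.765. The *nspg* sum was 7.90, 7.84 and 8.29 times the *nspc* sum in the N2 libraries and 15.1, 13.5 and 14.6 times in the mutant libraries. This ratio does not depend on how libraries are scaled to each other, and it stood at 8.01 ± 0.246 in N2 and 14.4 ± 0.819 in the mutants (SD, n = 3 per strain).

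**Figure D3:**
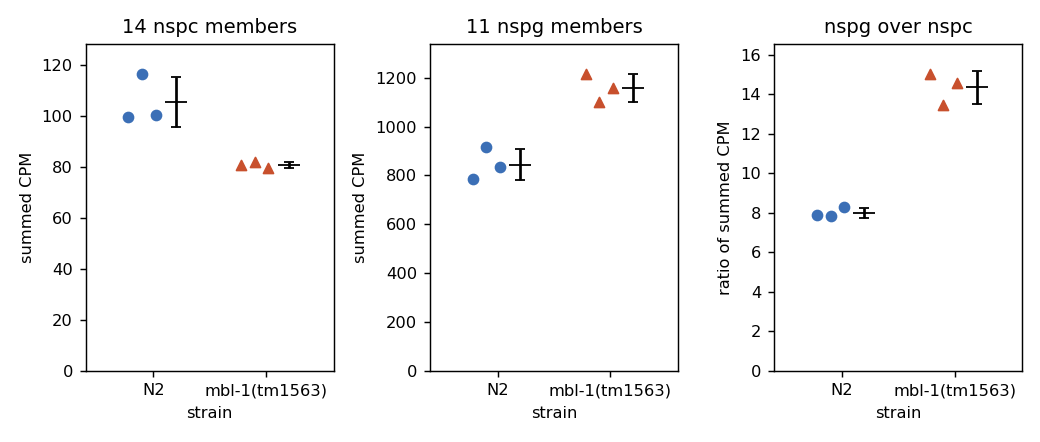
Summed CPM of the *nspc* members and of the *nspg* members, and the ratio of the sums, in each library (points), with the mean and SD of each strain (bars, n = 3). The mutant libraries lie below N2 for *nspc* (79.6 to 81.9 against 99.5 to 117 CPM), above N2 for *nspg* (1102 to 1216 against 786 to 914 CPM), and have a higher ratio (13.5 to 15.1 against 7.84 to 8.29).

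Among *nspg* genes, *nspg-10* (WBGene00017591, chromosome IV from 4605786 to 4608217) had 126, 159 and 135 CPM in N2 and 207, 233 and 232 CPM in the mutants. The strains did not overlap, and the log2 fold change was 0.68 (SE 0.10, adjusted p = 0.0118 in edgeR). Its exons overlap those of the collagen gene *col-110* by 17 bases. *nspg-14* (WBGene00021322, chromosome X from 5253047 to 5255068) had 90.5, 114 and 99.5 CPM in N2 and 158, 152 and 157 CPM in the mutants. Its log2 fold change was 0.62 (SE 0.09, adjusted p = 0.0112 in edgeR). *nspg-6* (WBGene00018951, chromosome III from 7313149 to 7314977) had 110, 124 and 113 CPM in N2 and 169, 141 and 148 CPM in the mutants. Its log2 fold change of 0.40 (SE 0.09) was only just past the limit (adjusted p = 0.0468 in edgeR). Each of these genes was short of 2-fold, with mean CPM 1.60, 1.54 and 1.32 times those of N2. Over 16 alternatives the adjusted p of *nspg-10* ran from 4.96e-07 to 0.0797, that of *nspg-14* from 1.29e-06 to 0.0768 and that of *nspg-6* from 0.00523 to 0.194.

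The most abundant member, *nspg-7.1*, had 226, 250 and 230 CPM in N2 and 339, 271 and 307 CPM in the mutants. The strains did not overlap, but its log2 fold change of 0.38 (SE 0.10) did not pass (adjusted p = 0.0647 in edgeR, 0.00884 to 0.234 over 16 alternatives). The largest fitted value of the family, 0.70 for *nspg-1*, rested on 19, 31 and 10 counts in N2 and 44, 23 and 29 in the mutants, with a 95% interval from -0.14 to 1.54, and 213 of its exon bases are shared with other genes. It was 1.096 without N2 replicate 2, 0.44 without N2 replicate 3 and 0.44 without mutant replicate 1. The smallest, 0.23 for *nspg-8*, came from 27.6, 19.5 and 22.4 CPM in N2 and 33.8, 22.3 and 25.6 CPM in the mutants, which overlap. It was 0.38 without N2 replicate 1, 0.12 without N2 replicate 2, 0.048 without mutant replicate 1 and 0.41 without mutant replicate 2. Untested *nspg-3* had 11 counts over the N2 libraries and 12 over the mutant libraries.

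The *nspg* genes do not share a site. *nspg-14*, *nspg-13* and *nspg-12* follow each other on the plus strand of X within 5338 bases, with 125 bases between the first pair, and *nspg-11* and *nspg-7.1* lie 4950 bases apart on chromosome IV. The 3 *nspg* members on X summed to 175, 224 and 202 CPM in N2 and to 287, 279 and 285 CPM in the mutants, 1.42 times higher on average. The 8 members on autosomes were 1.36 times higher on average. On X as a whole, the median log2 fold change of 1775 tested genes was -0.20, and 5.69% of them had every mutant library above every N2 library. Among 6 other tested genes within 20 kb of the *nspg-14* to *nspg-12* stretch, 2 had a positive and 4 a negative log2 fold change, from -0.43 to 0.24, and none was called.

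The *nspc* genes lie at 3 sites on X, with 7 genes from 8534672 to 8542283, 6 from 12342946 to 12361159 and 5 from 14523575 to 14530207. The genes of the last site code for 103 residues and those of the other sites for 101. At the first site, *nspc-4* (WBGene00044339), the most abundant *nspc* gene, had 18.6, 20.2 and 18.3 CPM in N2 and 14.1, 17.8 and 14.03 CPM in the mutants. The strains did not overlap, and the log2 fold change of -0.31 (SE 0.12) did not pass (adjusted p = 0.177 in edgeR). *nspc-1* and *nspc-7*, at the same site, had overlapping strains. *nspc-5*, between them, was the only tested *nspc* member with a positive value: 9, 15 and 13 counts in N2 and 16, 17 and 30 in the mutants, a log2 fold change of 0.78 (95% interval -0.04 to 1.60, adjusted p = 0.230 in edgeR) that was 0.43 without mutant replicate 3. The untested *nspc-3*, next to *nspc-4*, had 3, 3 and 1 counts in N2 and 5, 4 and 3 in the mutants. With 7 counts over the N2 libraries and 12 over the mutant libraries, *nspc-3* met the minimum for members only through the mutant libraries. Its higher level in the mutants is thus in part set by that minimum.

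At the second site, *nspc-13* (WBGene00009637, X from 12357427 to 12357919) had 10.2, 10.9 and 9.35 CPM in N2 and 7.04, 6.65 and 6.55 CPM in the mutants. It was the one *nspc* gene under the adjusted limit (adjusted p 0.0109 to 0.136 over 16 alternatives), with a log2 fold change of -0.59 (SE 0.11, adjusted p = 0.0273 in edgeR). The other tested genes of the site, *nspc-9*, *nspc-10* and *nspc-14*, had log2 fold changes of -0.53, -0.38 and -0.24, and in *nspc-14* the strains overlapped with N2 replicate 1, at 13.2 CPM, below the mutant libraries at 13.5 to 13.7.

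At the third site the fitted changes were the largest, with less depth. *nspc-17* (WBGene00008359, X from 14524754 to 14525181) had 64, 95 and 40 counts in N2 and 35, 25 and 32 in the mutants, or 3.38, 4.73 and 2.37 CPM against 1.81, 1.42 and 1.75. All mutant libraries were below N2, whose own libraries lay farther apart than those of the mutants. The log2 fold change was -1.08 (SE 0.28, 95% interval -1.72 to -0.44), past 2-fold, but the adjusted p was 0.0680 in edgeR (0.0255 to 0.203 over 16 alternatives). With DESeq2 (adjusted p = 0.0321), without the filter on low counts (0.0255), after a correction for gene length (0.0377) and without mutant replicate 1 (0.0341) it was called lower. *nspc-18*, *nspc-16* and *nspc-19* had log2 fold changes of -0.91, -0.89 and -0.67 without overlap of the strains, and *nspc-20* had -0.23 with overlap.

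**Figure D4:**
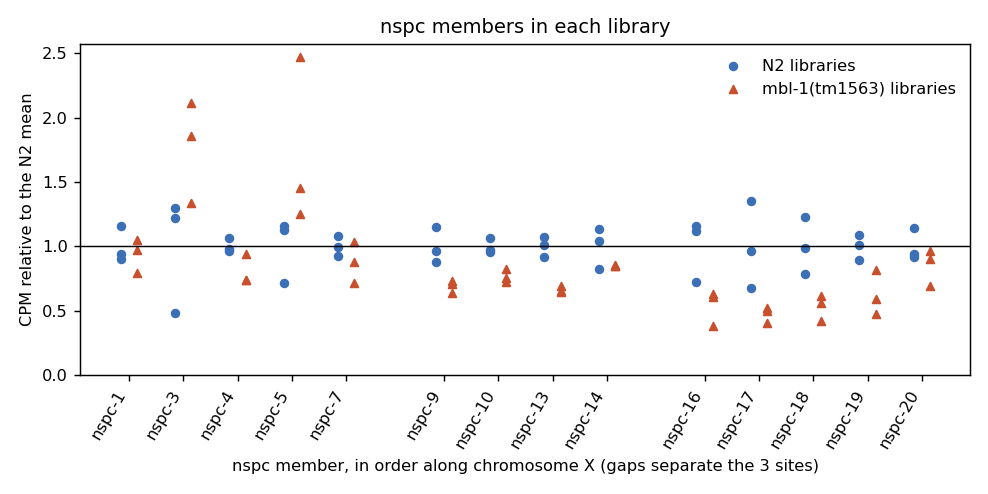
CPM of each *nspc* member relative to its N2 mean in the N2 libraries (circles) and the *mbl-1(tm1563)* libraries (triangles), in gene order along X. The mutant libraries lie below all N2 libraries in 1 of 5 members of the first site, 3 of 4 of the second and 4 of 5 of the third, while *nspc-3* and *nspc-5* lie above. Of these, *nspc-3* met the minimum of counts for members only through the mutant libraries.

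The median log2 fold change was -0.13, -0.46 and -0.89 at the 3 sites in that order. Summed CPM of the second site divided by that of the first was 1.72, 1.89 and 1.75 in N2 and 1.64, 1.55 and 1.53 in the mutants, with no overlap. For the third site over the first it was 0.802, 0.944 and 0.753 in N2 and 0.757, 0.596 and 0.583 in the mutants, and here mutant replicate 1 lay above N2 replicate 3. All of X had negative values on balance: 30.7% of its tested genes had every mutant library below every N2 library. Of the 13 tested *nspc* members, 10 lay below the X median of -0.20. The other tested genes within 20 kb of the sites numbered 5, 6 and 7, with medians of -0.19, -0.27 and -0.27, and none was called. The *mbl-1* gene lies on X as well, from 16978608 to 17010302, and the 3 sites come nearer to it in the same order. The mutant strain had been outcrossed with N2. Whether DNA of X near the deletion still differs between the strains was not tested. What the chromosome or such DNA contributes to the *nspc* values, and to their order by site, was not tested.

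Within strains, 1 N2 library stood above the others for *nspc*: in replicate 2, 13 of the 14 lay above their own N2 mean on the scale of log2(CPM + 0.5), against 5 in replicate 1 and 4 in replicate 3. In the mutants the numbers were 8, 6 and 8. For *nspg*, 9 of 11 members lay above their N2 mean in N2 replicate 2, and 10 of 11 above the mutant mean in mutant replicate 1. Of all 12335 tested genes, 6279 lay above their N2 mean in N2 replicate 2, and 6205 above their mutant mean in mutant replicate 1.

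In 3 of the 4 tested *nspe* genes the strains overlapped. *nspe-1* (WBGene00012591), the most abundant, had 3.85, 4.93 and 3.61 CPM in N2 and 4.92, 2.50 and 3.33 CPM in the mutants, with overlapping strains and a log2 fold change of -0.20 (95% interval -0.80 to 0.39), which was -0.51 without mutant replicate 1, -0.054 without N2 replicate 2 and 0.043 without mutant replicate 2. *nspe-7* (WBGene00012593) had 4, 12 and 5 counts in N2 and 14, 15 and 15 in the mutants. The strains did not overlap, and its log2 fold change of 1.08 (SE 0.39), past 2-fold, did not pass (adjusted p = 0.150 in edgeR), and it was 1.64 without N2 replicate 2. *nspe-2* and *nspe-4* had log2 fold changes of 0.22 and 0.29 with overlapping strains, and untested *nspe-5* had 4, 4 and 2 counts in N2 and 5, 4 and 11 in the mutants.

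The sperm peptide family *nspd* was near the limit of detection. *nspd-7* (WBGene00012781, chromosome IV), the single tested member, had 16, 14 and 20 counts in N2 and 22, 16 and 12 in the mutants, 50 in each strain, with a log2 fold change of 0.01 (95% interval -0.72 to 0.73) that ran from -0.20 without mutant replicate 1 to 0.23 without N2 replicate 3. The other 4 members, *nspd-1*, *nspd-2*, *nspd-3* and *nspd-9*, together had 5, 7 and 10 counts in N2 and 38, 14 and 6 in the mutants. Over the N2 libraries they had 6, 3, 7 and 6 counts in that order. Each thus met the minimum of 10 counts only through the mutant libraries, so that an excess of their sum in the mutants is in part set by that minimum. Most of the mutant counts came from replicate 1, which was the highest library for all 4. The untested genes *nsph-3.1* and *nsph-3.2* were also highest in mutant replicate 1. Their counts together were 7, 6 and 6 in N2 and 51, 16 and 7 in mutant replicates 1 to 3, and the lowest mutant library, at 0.382 CPM, was close to the highest N2 library at 0.369. *nsph-3.1*, with 8 counts over the N2 libraries, also met the minimum only through the mutant libraries.

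The major sperm proteins (*msp*), which build the cytoskeleton of the crawling sperm, were counted alongside. Over 31 *msp* genes the counts came to 42, 48 and 30 in N2 and to 234, 80 and 29 in mutant replicates 1 to 3, and 22 of the 31 were highest in mutant replicate 1. No *msp* gene had enough counts to be tested. The 29 named genes of the sperm list did not share this pattern in their sum. Mutant replicate 1 was their lowest library, at 197.7 CPM, against 284 and 265.8 in mutant replicates 2 and 3 and 245.5 to 265.8 in N2. Among them *gsp-3* and *spe-11* were highest in mutant replicate 1 (0.776 and 0.828 CPM). *spe-9* had 0.155 CPM there, against 0.341 and 0.437 in mutant replicates 2 and 3. With at most 0.828 CPM in any library, *gsp-3*, *gsp-4*, *spe-9*, *spe-11* and *peel-1* are a small part of the sum of the named genes. That sum thus does not stand for sperm. The *ssp*, *ssq*, *ssr*, *smz* and *msd* genes of the sperm list are in neither sum and were not summed on their own. Without mutant replicate 1, chosen after seeing the data, the summed CPM of the *msp* genes was 3.06 in the mutants against 2.13 ± 0.317 in N2 (SD, n = 3). For the 4 *nspd* members other than *nspd-7* it was 0.561 against 0.401 ± 0.170, and for all 5 *nspd* members 1.34 against 1.31 ± 0.404. For *nsph-3.1* with *nsph-3.2* it was 0.645 against 0.341 ± 0.0375. For the *nsph* members other than *nsph-1.2* it was 1.09 against 0.661 ± 0.331. The part of sperm in the *nspd* and *nsph* values was not tested.

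**Figure D5:**
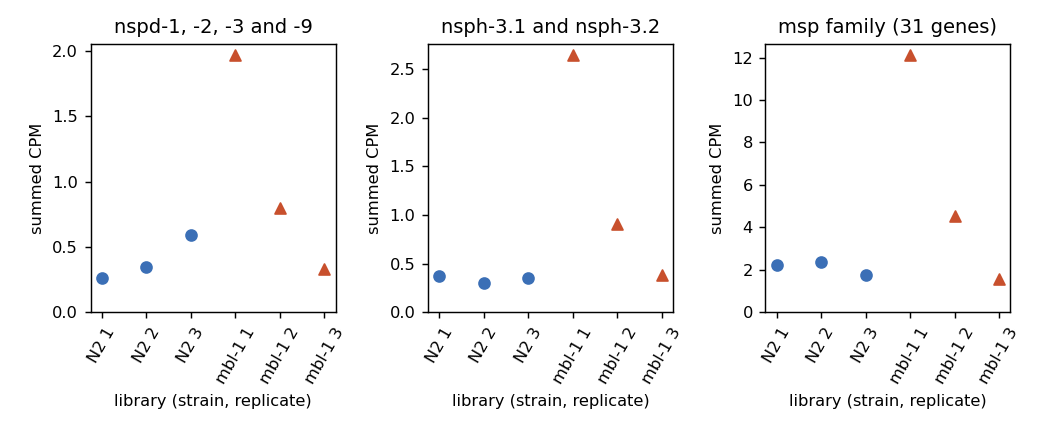
Summed CPM in each library of 4 *nspd* members, of *nsph-3.1* with *nsph-3.2*, and of 31 *msp* genes (N2, circles; *mbl-1(tm1563)*, triangles). Mutant replicate 1 is the highest in all 3 panels, at 1.97, 2.64 and 12.1 CPM, and mutant replicate 3 lies within or close to the range of N2.

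*nsph-1.2* (WBGene00011030, chromosome I from 12183688 to 12189008) stood apart from the rest of its family. It had 17.05, 16.4 and 16.3 CPM in N2 and 21.4, 17.9 and 17.6 CPM in the mutants. The strains did not overlap, with a log2 fold change of 0.19 (SE 0.11) that did not pass (adjusted p = 0.306 in edgeR) and was 0.099 without mutant replicate 1. *nsph-1.1* had 16 counts over the N2 libraries and 17 over the mutant libraries, and *nsph-2* had 1 and 10. *nsph-2* thus met the minimum of 10 counts only through the mutant libraries.

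The remaining members had few counts. *nspb-10* (WBGene00007246, chromosome II from 14587879 to 14588262) had 4, 4 and 3 counts in N2 and 13, 8 and 13 in the mutants. The strains did not overlap, with 11 counts in all in N2 and 34 in the mutants. In a fit that took in every gene with 10 or more counts, and so all 43 members, its log2 fold change was 1.65 (SE 0.40, adjusted p = 0.0595 in edgeR). Without mutant replicate 2 it passed the filter on low counts through the mutant libraries alone, with 13 counts in each, so that the call it then got is no support for a difference. *nspa-8* (WBGene00012294, chromosome V) had 13, 8 and 4 counts in N2 and 3, 4 and 2 in the mutants, and *nspa-5* had 3, 7 and 2 against 3, 2 and 0. For both *nspa* genes the mutant counts, 9 and 5 in all, were under the minimum of 10, which the N2 libraries alone met. In the fit of all genes with 10 or more counts, none of the 14 members left out by the main filter passed after adjustment.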

How the data were processed

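Poly(A) RNA of 3 N2 and 3 *mbl-1(tm1563)* samples was sequenced. The authors aligned reads with STAR to the WBcel235 reference transcriptome, ran HTSeq in its unstranded mode, and deposited raw counts per gene. Versions are not given in the sources used here. Reads on several places (7.34 to 9.87% of reads), on several genes (0.821 to 1.01%) or outside genes (0.463 to 0.577%) were left out of the gene counts. Strain and replicate were taken from the sample titles.

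Symbols came from a table of gene names (43623 of 46726 identifiers), and positions, exon and coding lengths from annotation release 115 of WBcel235. The tests used edgeR 4.0.16 under R 4.3.3, with filterByExpr (minimum count 10, minimum total 15), TMM scaling, and the robust quasi-likelihood test with strain as the only factor, with Benjamini-Hochberg adjustment over 12335 genes. Calls needed an adjusted p under 0.05 and 2-fold, the limits of the study's methods. Sums over members are given with no test. Libraries of a strain differed by more than sampling noise. The chi-square per degree of freedom was 3.84 to 8.95 for pairs of N2 libraries and 12.4 to 59.9 for pairs of mutant libraries. The highest values were those of mutant replicate 1 with mutant replicates 2 (59.9) and 3 (24.7). The p-values set the strain difference against the variation between libraries that edgeR estimated, with 3 libraries per strain.

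Genes were named by rule: members called, and in each family the member of highest RPKM and the tested members of highest and lowest log2 fold change. Members, lists and the rule were chosen with earlier results of these data known. Lists of sperm, oocyte, hypodermis, intestine, muscle, neuron, pharynx and gland markers were written by hand. Another list, of fungus-induced (*fip* and *fipr*) peptides, had 6 tested genes, none called, with a median log2 fold change of -0.28. Alternatives were DESeq2 1.42.0, other scalings and filters, no fold limit, the replicate number as a block, a lowess correction for exon length, and each library left out. The tests were tried on simulated data (seed 11).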

Additional observations from a re-analysis of the deposited data

Results flagged for a closer look

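Reads that HTSeq could not assign because they lay on more than 1 gene made up 0.879% or more of all reads in every mutant library and at most 0.826% in the N2 libraries. These reads enter no gene count. Of the 43 members, 7 have exons that overlap those of another gene. They are *nspg-1*, *nspg-3*, *nspg-6*, *nspg-9*, *nspg-10*, *nspg-11* and *nsph-1.1*, and no *nspc* member is among them. The overlap is 71 bases in *nspg-6* and 17 in *nspg-10*. The reads are given only as totals, and their part in the values of these genes was not tested.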

How the results depend on the processing

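Over all genes, 84 were called higher and 141 lower, and 31 to 134 and 54 to 234 with a library left out. With no limit on the fold change 3 members were higher and 1 lower. With the limit, DESeq2, no filter on low counts and the length correction each called 1 member lower (*nspc-17*), and the other settings that kept all libraries called none. With 1 library left out, 0 to 1 members were called higher (*nspb-10*, without mutant replicate 2, which passed the filter through the mutant libraries alone) and 0 to 2 lower (*nspc-17* and *nspc-18*, without mutant replicate 1). At the adjusted limit alone, an alternative added after seeing the data, 0 to 7 members were higher and 0 to 4 lower over the fits that left out a library. The share of all genes at that limit was not counted for these fits. The median of the tested members was 0.19, and it was 0.28 with library size alone, 0.32 with no filter or with 10 or more counts in all (43 members), -0.083 with at least 1 CPM in 3 libraries (25 members), and -0.0055 (without mutant replicate 1) to 0.28 with a library left out. It mixes families of opposite direction. The *nspc* median was -0.38, -0.30 with library size alone, and -0.41 to -0.33 with a library left out. The *nspg* median kept its sign in all 16 alternatives. *nspd-7* turned negative without N2 replicate 1 (-0.037), N2 replicate 2 (-0.16) or mutant replicate 1 (-0.20) and reached 0.23 without N2 replicate 3, and *nspe-1* turned positive without mutant replicate 2 (0.043) and reached -0.51 without mutant replicate 1.

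Same-numbered libraries of the strains had deviations that correlated by 0.111, 0.00812 and 0.130 across genes, and not every library correlated best with its own number, so that the number is not taken as a pairing. With the replicate number as a block no member was called (0 higher, 0 lower). At the adjusted limit alone 2 were higher, *nspg-10* and *nspg-14*, and none was lower. Over all genes the block gave 60 calls higher and 108 lower at both limits, and the share at the adjusted limit alone was not counted. Counts under about 10 per library limit what can be said of *nspa*, *nspb*, *nspd* and most *nsph* genes.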

Other observations

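Among the *nsp* genes under the minimum of 10 counts, which entered no comparison, the few counts were spread unevenly over the libraries. *nspb-12* on chromosome III had no count in N2 and 1, 1 and 5 counts in the mutants. *nsph-4.1* had 0, 0 and 1 counts in N2 and 7, 0 and 1 in the mutants, and the sperm peptide gene *nspd-5* had 2, 0 and 1 against 5, 1 and 0. In these last 2 genes mutant replicate 1 was the highest library. Of the 19 genes with no count at all, 8 were *nspa*, 4 *nspb*, 3 *nspc*, 1 *nspd*, 1 *nspe* and 2 *nspf* genes.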
